A study of Mus musculus with 14 samples.

Results

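Scx, Thbs4 and Comp, 3 genes known from tendon and ligament, were followed across 14 single red cells from adult mouse bone. The members were the rows of the deposited expression table whose gene symbol was Scx, Thbs4 or Comp, and each symbol matched 1 row, 3 of 9558 in all. The mice were adult Prrx1-CreERT;Tomato animals on the C57BL/6 strain. A Cre recombinase that needs tamoxifen is driven in them by the promoter of Prrx1, a gene of limb and connective tissue mesenchyme, and it switches on the red reporter Tomato. All cells shared this genotype and a course of tamoxifen of 2 mg for each 30 g of mouse, given daily on 3 days. Red cells were sorted from collagenase digests of tibiae, radii and ulnae whose marrow had been flushed out, and single cells were then picked under a microscope. The labels give 1 group, no untreated control and no animal of origin, so the 14 cells count as 1 sample and no test between samples was possible. Each value belongs to 1 cell, and a median, range or SD summarises these 14 cells alone.

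Scx encodes scleraxis, a basic helix-loop-helix transcription factor that marks tendon and ligament progenitors and promotes the expression of tendon matrix genes. Thbs4 (thrombospondin-4) and Comp (cartilage oligomeric matrix protein, also called thrombospondin-5) encode secreted proteins of the thrombospondin family. Each assembles into a pentamer that binds calcium and collagen, and both are abundant in tendon, while Comp is also a main component of cartilage matrix. TGF-beta signalling is known to induce Scx in tendon progenitors. Tendons and ligaments attach to bone at its surface and through the periosteum, the sheath of connective tissue around it.

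Levels are on a log2 scale, read as log2(FPKM + 1), where FPKM scales the fragments of a gene to its transcript length and to the fragments mapped in the library. Detected means a level of 1 or higher, which reads back as an FPKM of at least 1 on the scale of the table. The table holds the same distribution of values in every cell, so a level states how high a gene stood within its cell. The same holds for every FPKM value read back from a level here, which is not the FPKM measured in a library. In each cell 5066 rows were detected (53.0% of the table), and 7304 to 8027 rows were above 0. The largest value of the table was 14.58 in all cells. No counts are given, so the sequencing depth behind each value is unknown, and single cells carry no error of their own.

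Before the levels, the transcripts themselves were examined, since Thbs4 and Comp are related genes and reads from one could be assigned to the other. Thbs4 (ENSMUSG00000021702) occupies 92751590 to 92794818 on chromosome 13 (GRCm38, minus strand), and its longest coding transcript in GENCODE M21 has 3198 bases in 22 exons. Comp (ENSMUSG00000031849) occupies 70373558 to 70382066 on chromosome 8 (plus strand), with 2416 bases in 19 exons. Their coding sequences were 74.7% identical over 2142 aligned bases. The stretch of 90 aligned bases in which they were most alike is printed because a read of one gene resembles the other most there. It falls within exon 16 of Comp, at chr8:70380164-70380253, and exon 19 of Thbs4, at chr13:92755137-92755226, and capitals mark the 11 bases that differ.
Comp: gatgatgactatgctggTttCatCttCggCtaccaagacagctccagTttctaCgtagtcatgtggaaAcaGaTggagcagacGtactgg
Thbs4: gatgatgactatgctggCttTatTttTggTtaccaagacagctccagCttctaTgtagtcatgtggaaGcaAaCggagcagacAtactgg
Even there the identity was 87.8%, and the longest run of identical bases that the whole transcripts shared, untranslated parts included, was 26 bases. The sources used here give no read length.

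Scx (ENSMUSG00000034161) occupies 76457452 to 76459458 on the plus strand of chromosome 15, with a spliced coding transcript of 1035 bases in 2 exons. The whole gene lies inside intron 3 of Bop1, a ribosome biogenesis gene on the opposite strand, between 76456027 and 76466771. No exon base is shared between the 2 genes, and Scx was the only member of the 3 to overlap another annotated gene. Whether the counting used strand is not given, so reads of unspliced Bop1 RNA in this stretch and reads of Scx cannot be told apart. The coding bases across the Scx splice junction are shown because a read over them comes from spliced Scx RNA and from no Bop1 RNA. Lower case is the end of exon 1 (chr15:76458157-76458186) and capitals are the start of exon 2 (chr15:76459082-76459111).
Scx: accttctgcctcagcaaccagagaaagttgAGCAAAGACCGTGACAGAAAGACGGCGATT
The table holds no reads, so how many crossed this junction was not analysed here.

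The transcription factor gene Scx was the sparsest of the members. It was detected in 3 of 14 cells (21.4%, exact Clopper-Pearson 95% interval 4.66% to 50.8%, which covers counting error only), and 26.9% of all rows were detected in 3 cells or fewer. This interval, like those for Thbs4 and Comp below, treats the cells as independent draws, which cannot be checked as no animal is named. Cell 5 had a level of 5.74, cell 10 of 3.28 and cell 2 of 1.44. Cell 9 held 0.41, and Scx was listed at 0 in the other 10 cells, so that its median was 0. A single cell therefore stood well above the rest. The value in cell 5 ranked 1402nd among the rows of that cell, at the 85.3rd percentile, and cell 5 held 83.0% of the linear Scx FPKM summed over the cells. Of all rows, 82.8% had a lower share in their own highest cell. A highest value of 5 or more was reached by 71.1% of all rows.

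Bop1 was compared with Scx cell by cell because of the shared locus. Bop1 was detected in cell 12 at 5.24, cell 5 at 3.04 and cell 1 at 1.35. Cell 5 was thus the only cell with both genes detected. In cells 10 and 2, which had Scx, Bop1 was listed at 0, and in cells 12 and 1 Scx was listed at 0 while Bop1 was detected. Each gene was therefore found without the other in 2 cells.

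**Figure D1:**
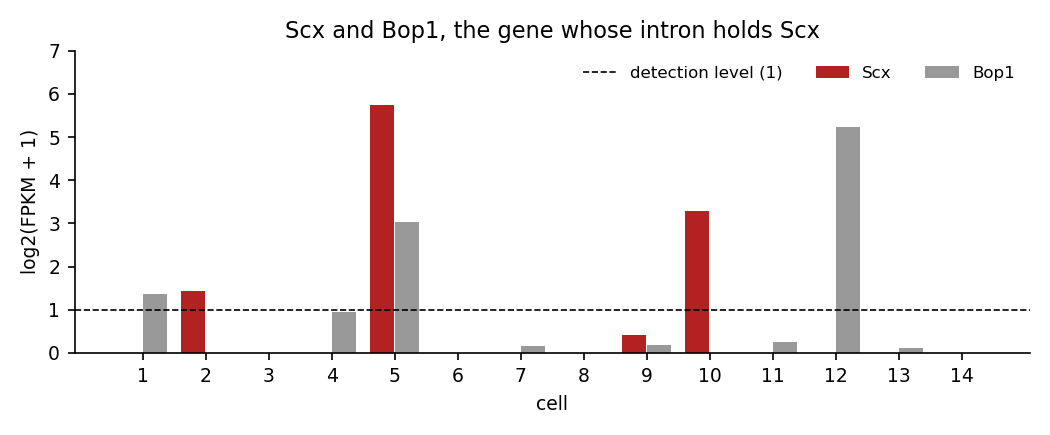
Level of Scx (red) and Bop1 (grey), as log2(FPKM + 1), in each of the 14 cells, with the detection level of 1 dashed. Both bars pass the dashed line in cell 5 (5.74 and 3.04), while cell 10 has Scx at 3.28 without Bop1 and cell 12 has Bop1 at 5.24 without Scx.

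The 14 cells were divided into a larger and a smaller set by which rows are at 0. The clustering was set to return this number of sets, and how well they separate was not measured. The rows it used included Scx and all others above 0 in exactly 4 cells. The sets, found by clustering the cells on presence, are not groups of the labels: cells 3, 4, 11, 12 and 13 form the smaller and the other 9 cells the larger. All 4 cells with Scx above 0 belonged to the larger set, and Scx was at 0 in all 5 cells of the smaller. Among the 242 rows above 0 in exactly 4 cells, 57 (23.6%) were likewise at 0 in all 5 of these cells. The part of these sets in the absence of Scx was not tested.

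Of the 14 cells, 12 had Thbs4 detected (85.7%, exact 95% interval 57.2% to 98.2%), and 27.0% of all rows were detected in at least 12. Its level ranged from 0.74 to 10.45 with a median of 3.21 and an SD of 2.88. The highest levels were 10.45 in cell 11 and 8.95 in cell 1, followed by 4.77 in cell 5 and 3.56 in cell 2. Cells 13, 3, 12 and 6 lay close together, at 3.33, 3.33, 3.28 and 3.14. Lower levels were found in cell 14 at 2.27, cell 7 at 2.14, cell 8 at 1.46 and cell 4 at 1.0. Cells 9 and 10, at 0.91 and 0.74, missed the detection level. The pattern was that of a low level in most cells and a very high one in a pair of them. In cell 11 Thbs4 ranked 86th of all rows, at the 99.1st percentile, and in cell 1 it ranked 262nd. Cells 1 and 11 together held 95.8% of its linear FPKM summed over the cells. Cell 11 alone held 70.8%, and 73.5% of all rows had a lower share in their own highest cell. The SD of Thbs4 was above that of 96.5% of the rows.

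Leukocyte transcripts were found in every cell, and cell 11, which had the most Thbs4, was among the richest in them. Of 13 measured blood cell markers, 5 were detected in all 14 cells. In cell 11 12 of the 13 were detected, against 6 to 11 in the other cells and 53.0% of all rows in each cell. Their summed level in cell 11 was 112.1, against 24.3 to 83.3 in the cells other than 11 and 14, and 118.2 in cell 14. The leukocyte antigen gene Ptprc was at 8.31 in cell 11 and 6.51 in cell 14. Cell 14, with the highest blood cell sum, had Thbs4 at 2.27. Cell 1, with the second highest Thbs4, had 9 of the 13 markers detected, with Cd79a at 0, a sum of 53.0 and Ptprc at 0.33. Whether the leukocyte RNA had a part in the Thbs4 level of cell 11 was not tested, and without cells 11 and 14 Thbs4 was detected in 10 of 12 cells.

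Of the 14 cells, 7 had Comp detected (50.0%, exact 95% interval 23.0% to 77.0%), and 51.7% of all rows were detected in at least 7. Its level ranged from 0.25 to 8.13 with a median of 1.18 and an SD of 2.58. The highest levels were 8.13 in cell 7 and 7.04 in cell 1. Cells 12, 11 and 6 followed at 5.04, 4.16 and 3.11, and cells 9 and 2 at 1.83 and 1.42. Comp thus fell off in steps over the cells, with no wide gap except that below the top pair. Cells 3, 5 and 8 lay just under the detection level, at 0.93, 0.92 and 0.91, so the count of 7 would be 10 at a level of 0.9. In cell 7 Comp ranked 441st, at the 95.4th percentile. Cells 7 and 1 held 86.2% of its summed linear FPKM. Cell 7 alone held 58.7%, and 61.7% of all rows had a lower share in their own highest cell. A highest value of 8 or more, which Thbs4 and Comp both reached, was found in 19.9% of all rows.

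**Figure D2:**
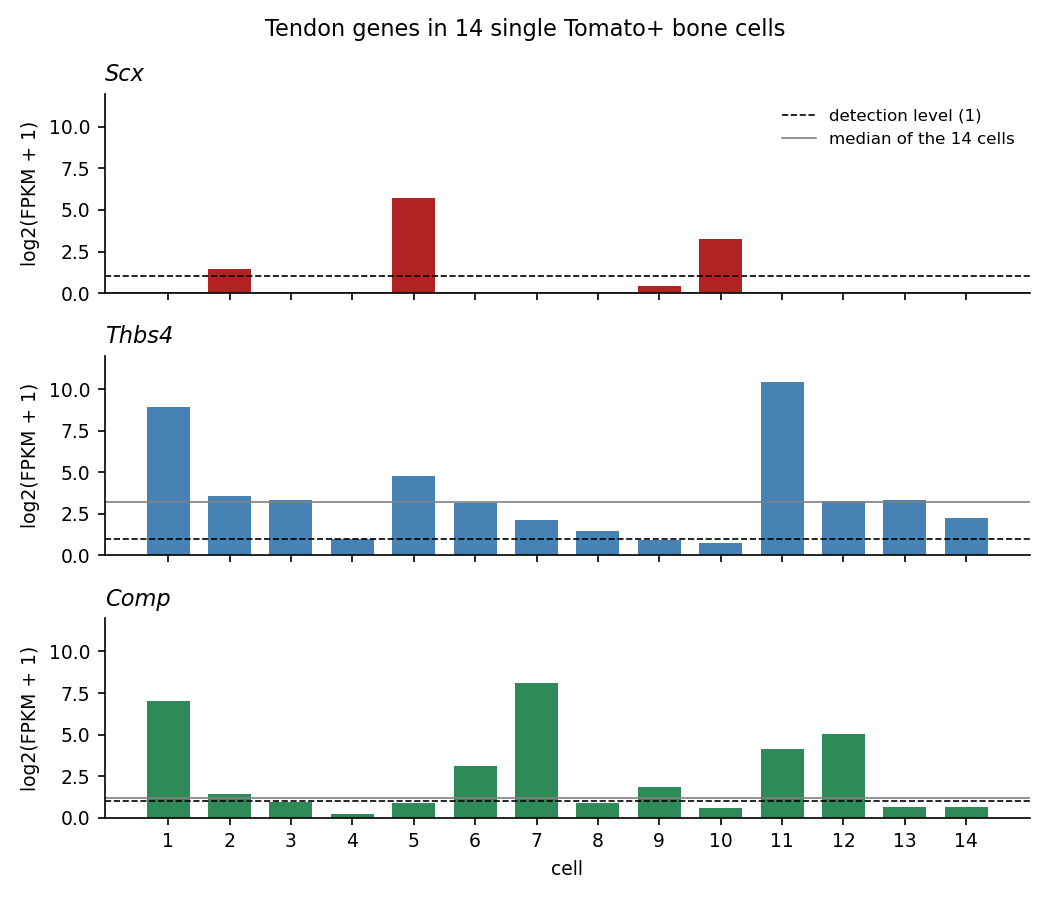
Level of Scx, Thbs4 and Comp (top to bottom), as log2(FPKM + 1), in each of the 14 cells. The dashed line is the detection level of 1 and the grey line the median of the cells; Scx peaks in cell 5 at 5.74, Thbs4 in cells 11 and 1 at 10.45 and 8.95, and Comp in cells 7 and 1 at 8.13 and 7.04.

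The 3 genes had their highest levels in 3 different cells. At least 2 of them were detected together in 7 cells, namely cells 1, 2, 5, 6, 7, 11 and 12. Thbs4 and Comp were found together in 6 cells, Scx and Thbs4 in cells 2 and 5, and Scx and Comp in cell 2. Cell 2 was the only cell with all 3, at 1.44 for Scx, 3.56 for Thbs4 and 1.42 for Comp. No cell had all 3 genes at high levels. At an FPKM of 10 or more, cells 1 and 11 had Thbs4 with Comp and cell 5 had Scx with Thbs4. Cell 1 was the only cell in which any 2 of the genes reached 5. With 14 cells, a dependence of one member on another was not tested.

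Thbs4 and Comp were set against each other within each cell, on the scale per transcript length. Thbs4 stood above Comp in 11 of 14 cells, with a median difference of 1.19. Where both were detected, Thbs4 was the higher in cells 1, 2, 6 and 11, and Comp in cells 7 and 12. In cell 10, counted among the 11, both lay below the detection level. The difference was largest in cell 11, at 6.29, and lowest in cell 7, at -5.98. Comp was also the higher gene in cells 12 and 9, by 1.76 and 0.92 of the same log2 units. In cell 6 the genes were level, at 3.14 and 3.11. The relation between these thrombospondins thus ran in both directions among the cells. The libraries capture 3' ends, so reads per gene need not scale with length. Thbs4 has the longer transcript, so undoing the division by length can only raise it against Comp and cannot test the 11 cells. With the division undone, Comp remained the higher gene in cells 7, 12 and 9, at differences of -5.82, -1.44 and -0.91.

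**Figure D3:**
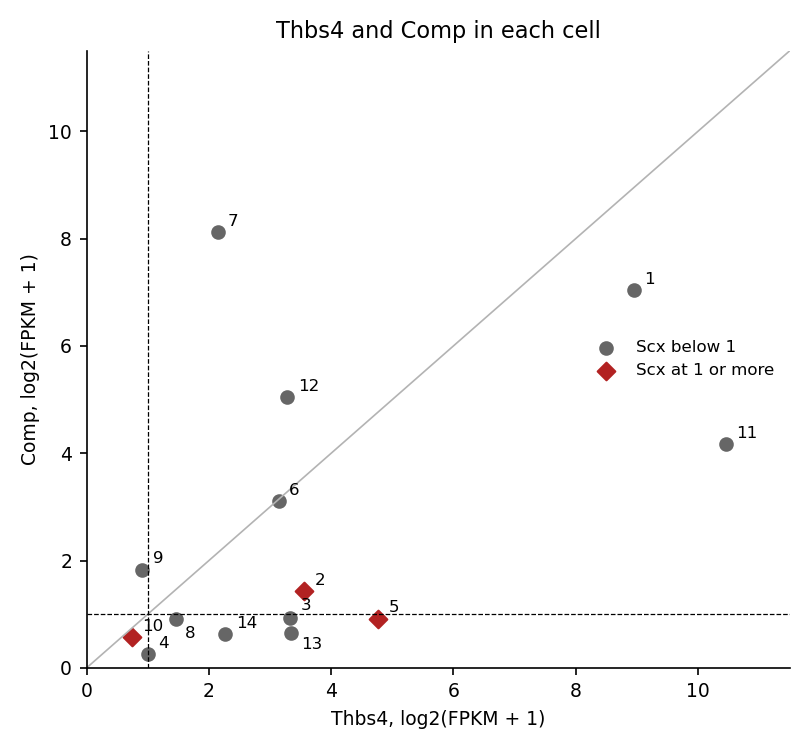
Level of Thbs4 (horizontal) against Comp (vertical), both as log2(FPKM + 1), with 1 point per numbered cell, the line of equal levels in grey and the detection level of 1 dashed. Red diamonds are the cells with Scx at 1 or more (cells 2, 5 and 10), all with Comp at 1.42 or less, while cell 1 is high for both axes and cells 7 and 11 for 1 axis each.

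The other thrombospondins showed how general these patterns were in the family. Thbs3, the third of the pentameric members, had 13 cells at the detection level or above and a median of 4.60, and cells 9, 7 and 1 had the most, at 9.30, 8.39 and 8.28. The trimeric and anti-angiogenic members Thbs1 and Thbs2 were detected in 12 and 9 cells. Thbs1 was highest in cell 14 at 7.80 and Thbs2 in cell 1 at 6.58. All 5 genes passed the mark of 7 cells (51.7% of all rows), but 0 of them were detected in every cell (15.8% of all rows). The median of their medians was 2.46, against 0.96 over all rows. Cell 1 had 4 of the 5 genes at 6.58 or more, the exception being Thbs1 at 1.40. Cell 10 had the lowest family mean, at 1.23, and there Thbs3 was highest, at 2.32.

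Transcription factors known from tendon were next compared with Scx. Besides Scx, 4 of those listed were measured, and 3 of these, Egr1, Mkx and Six2, reached the detection level in 7 cells or more, as did 51.7% of all rows. Egr1, a zinc finger factor of tendon repair that is also an immediate early gene, had 13 cells at the detection level or above and a median of 5.74. Mkx (mohawk), a homeobox factor of tendon maturation, was detected in 9 cells, with 3.31 in cell 6 as its highest level. Six2, a homeobox gene of limb tendons, was detected in 10 cells, with 6.15 in cell 6. None of these peaked in cell 5, where Scx was highest: Mkx was at 0.10 there, Six2 at 0.55 and Egr1 at 3.14. Cell 10 had Mkx at 1.05, Six2 at 1.80 and Egr1 at 5.97, and cell 2 had them at 1.15, 0.96 and 5.69. Egr2, the remaining measured factor, peaked in cell 9 at 6.31 and passed the detection level in 2 cells.

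Scx acts as a dimer with an E protein, and Id proteins, which lack the basic DNA-binding part, take E proteins away. The E protein gene Tcf4 was detected in all 14 cells, and cells 5, 10 and 2 had it at 4.36, 5.28 and 2.73. Tcf12 was at 2.32, 0.98 and 5.19 in the same cells, and Tcf3 was below 1 in all of them. Among the inhibitors, Id2 and Id3 were detected in all 14 cells, with medians of 8.24 and 10.36. Id3 was at 2.56 in cell 5, the lowest of any cell, but at 11.10 in cell 10 and 10.46 in cell 2. Of the 9 listed partners and inhibitors, all were measured and 6 had a detected level in 7 or more cells, against 51.7% of all rows.

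Genes of tendon and ligament matrix ranged from those in every cell to those in few. Without Thbs4 and Comp, 10 of 15 listed matrix genes were measured, of which 8 were found in 7 or more cells and 3, Bgn, Dcn and Lum, in every cell. Over all rows these shares were 51.7% and 15.8%. The median of their medians was 4.13, against 0.96 over all rows. The tenomodulin gene Tnmd and the lubricin gene Prg4 were not analysed here. Fmod (fibromodulin), a proteoglycan that binds collagen fibrils, was highest in cell 1 at 9.02 and cell 5 at 7.14, where Thbs4 was at 8.95 and 4.77. In cell 11, with the highest Thbs4, Fmod was at 1.04. Tnc (tenascin-C), a matrix protein of tendon and its junctions, was detected in 6 cells, the first of them cells 1 and 5 with 4.19 and 3.87. Cells 1 and 5 so shared high Fmod, Tnc and Thbs4, while Scx was at 0 in cell 1.

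Chad (chondroadherin), a leucine-rich cartilage and tendon protein that binds collagen, had the same leading pair of cells as Comp. Its level was 9.43 in cell 7 and 8.66 in cell 1, followed by 4.27 in cell 6. Chad was listed at 0 in cells 12 and 11, the next cells in the order of Comp. Both genes were therefore high together in the top pair only. Of the other 9541 gene symbols in the table, 109 (1.14%) had cells 7 and 1 as their highest pair. Chad was the only one among the 121 listed genes, a share no higher than that over all symbols. The Spearman correlation of Chad with Comp over the 14 cells was 0.29, which 1985 other rows exceeded. Cilp, a matrix protein gene of cartilage and tendon, was at 7.48 in cell 7 and 7.23 in cell 11, the cells with the most Comp and the most Thbs4, and at 0.29 in cell 1.

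All 13 listed collagen genes of tendon were measured, with 11 found in 7 or more cells (51.7% of all rows) and 6 in every cell (15.8% of all rows). Their medians had a median of 4.56. These genes were not tied to 1 kind of cell, so the count does not by itself mark tendon cells. Col1a1 and Col11a1 were highest in cells 13, 6 and 10, the cells with the highest means of the osteoblast markers. Col3a1 was highest in cell 1 and Col6a1 in cell 5. Col12a1, a fibril-associated collagen of tendon and periosteum, shared its 4 highest cells with Thbs4. Cells 11, 1, 2 and 5 had it at 8.36, 8.34, 7.46 and 6.82, and it was at 4.80 or less elsewhere. In the remaining cells the orders differed. Col12a1 was next highest in cell 9, where Thbs4 was at 0.91, and was at 1.44 in cell 3, where Thbs4 was at 3.33. Both genes were lowest in cell 10. The Spearman correlation of Col12a1 with Thbs4 over the 14 cells was 0.61, which 108 other rows exceeded. In cell 5, with the most Scx, the collagen VI genes Col6a1, Col6a2 and Col6a3 were at 8.05, 7.62 and 7.91. They were at 4.86, 5.44 and 1.34 in cell 10, and at 3.20, 6.19 and 3.39 in cell 2. Cells with Scx at 0 ranged widely. The levels were 7.08, 6.47 and 7.32 in cell 1, 6.33, 6.19 and 7.21 in cell 7, and 1.82, 1.39 and 1.46 in cell 8.

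**Figure D4:**
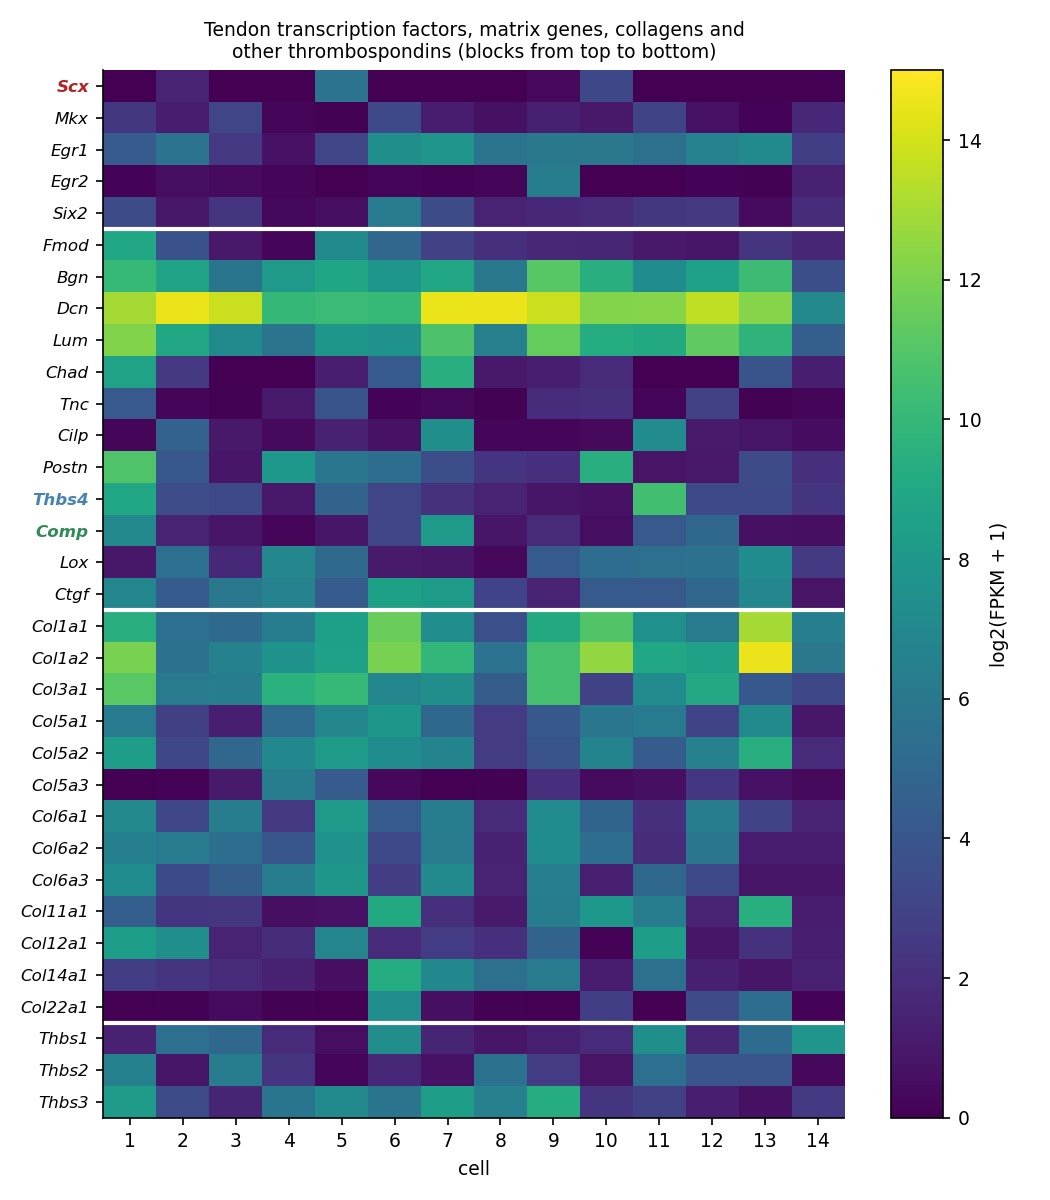
Level (colour, log2(FPKM + 1)) of the measured tendon transcription factors, matrix genes, collagens and the other thrombospondins (rows, in blocks divided by white lines) in the 14 cells (columns), with the 3 members in bold. Dcn and Lum are bright in nearly all columns, whereas Scx is visible in cells 2, 5 and 10, Thbs4 is brightest in cells 1 and 11, and Comp in cells 1 and 7.

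Genes of the TGF-beta pathway, inhibitors and targets among them, were examined because its signalling is known to induce Scx. Of 15 listed, 14 were measured. Of these 10 were found in 7 or more cells and 1, the induced matrix gene Tgfbi, in every cell, against 51.7% and 15.8% of all rows. The median of their medians was 1.83. For the ligand gene Tgfb2, cells 1, 11, 5 and 2 had levels of 6.09, 5.88, 5.84 and 5.28, and the other 10 cells had 2.54 or less. These were again the 4 cells with the most Thbs4. Of the other 9541 symbols, 6 (0.0629%) had the same 4 highest cells, and Col12a1 and Tgfb2 were the only ones among the 121 listed genes. The order among the 4 cells differed between the genes, and the shared set was seen only after the values were known. Tgfb1 and Tgfb3, the other ligands, reached 5.23 in cell 2 and 5.69 in cell 1.

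The receptors and the target gene Tgfbi took other patterns in the Scx-positive cells. Cells 5, 10 and 2 had the receptor gene Tgfbr1 at 3.61, 4.93 and 6.07. Tgfbr2, its partner receptor, was at 0.51, 0.56 and 1.97 in the same cells. Tgfbi was at 8.74 in cell 5, the highest of any cell, at 5.93 in cell 2 and at 1.79 in cell 10. The cells with the most Scx therefore did not share one level of this target.

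Receptors and partners of the thrombospondins varied from gene to gene. Of 21 listed genes 14 were measured, with 10 found in 7 or more cells and 5 in every cell, against 51.7% and 15.8% of all rows. The other 4 were Atf6 in 6 cells, Matn2 in 3, Itgam in 2 and Itgb3 in 1. Cd47, a cell surface receptor of thrombospondins, had a median of 7.37 and Itgb1, the beta-1 integrin subunit, of 5.66. In cell 11 Cd47 was at 7.74 and Itgb1 at 5.06, and in cell 7 they were at 7.90 and 3.12. Calr (calreticulin) and Hspa5, chaperones of the endoplasmic reticulum, were detected in all 14 cells. Fn1 (fibronectin), a matrix partner of Comp, had levels of 12.07, 10.16 and 9.80 in cells 12, 7 and 1, where Comp was at 5.04 or more. It was also at 10.39 in cell 8 and 10.34 in cell 5, where Comp was at 0.91 and 0.92.

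The cells in which the members were highest carried different markers of other types. Cell 5, with the most Scx, had the lowest mean of the osteoblast markers, at 0.74, whereas cell 10, the next for Scx, had one of 5.90 with the bone sialoprotein gene Ibsp at 12.48. Cell 2 had the leptin receptor gene Lepr at 10.56. So the 3 Scx-positive cells were not alike in these markers. Of the Comp-high cells, cell 7 had Lepr at 9.97 and cell 12 had the cartilage factor genes Sox6 and Sox5 at 7.33 and 6.49. Sox9, the master factor of cartilage, had levels of 5.66, 4.35 and 4.10 in cells 1, 7 and 12, and 0.14 in cell 11. It was also at 4.58, 4.47 and 3.96 in cells 3, 13 and 5, where Comp was below the detection level. Col2a1, the cartilage collagen gene, was at 4.29, 1.33 and 1.76 in cells 1, 7 and 12, and its highest level, 9.53, was in cell 13, where Comp was at 0.65. Tnnt3, the single measured skeletal muscle marker of 10 listed, was at 7.01 in cell 1. Its part in the Thbs4 level of that cell was not tested.

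Prrx1, whose promoter marked the cells, was not high wherever the members were. It was at 7.31 in cell 1 and 4.26 in cell 7, but at 1.45 in cell 5 and 1.11 in cell 11. In cell 10 Prrx1 was at 3.28, and in cell 2 it was at 0.61, below the detection level. Of the pair with the most Thbs4, cell 1 thus had the highest Prrx1 level of all cells and cell 11 one of the lower levels.

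The genes whose pattern over the 14 cells was most like each member were ranked by Spearman correlation among 6212 gene symbols detected in at least 5 cells. The values describe 14 cells that share their processing, and the genes are ordered by likeness alone. For Comp the first was Pam, which encodes an enzyme that amidates secreted peptides, with a correlation of 0.96. Cells 1, 7, 6 and 12 had Pam at 8.94, 8.85, 7.35 and 7.23, and it was lowest in cell 4, at 0.96, as was Comp. The order of the cells was nearly the same for both genes. The other 4 were Nucks1 (0.86), Nf1 (0.85), which encodes the Ras regulator neurofibromin, the transcriptional repressor gene Cic (0.83) and the TGF-beta superfamily gene Gdf10 (0.83). Gdf10 had its highest level, 8.50, in cell 7, where Comp was highest too.

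**Figure D5:**
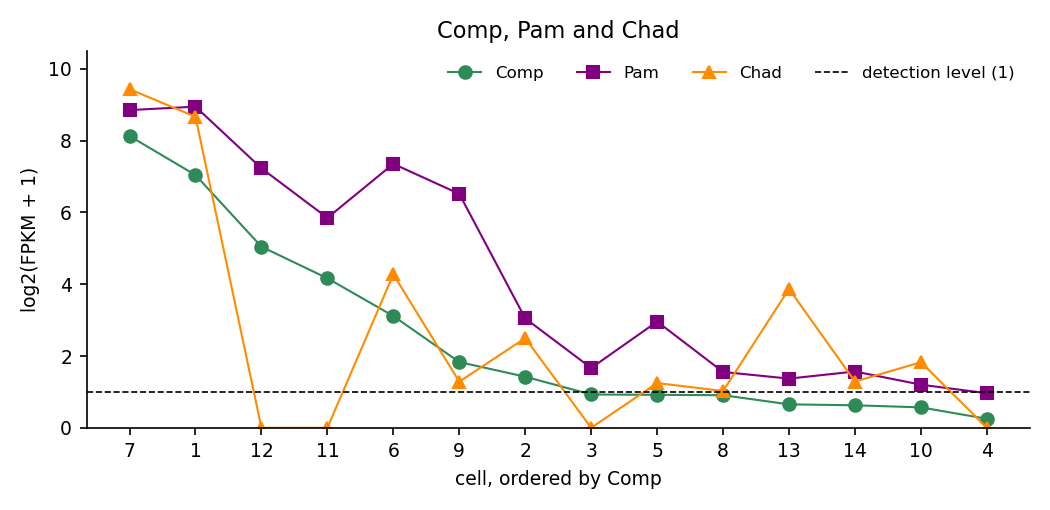
Level of Comp (green circles), Pam (purple squares) and Chad (orange triangles), as log2(FPKM + 1), with the 14 cells ordered by their Comp level and the detection level of 1 dashed. Pam falls from 8.85 in cell 7 to 0.96 in cell 4 along the order of Comp, whereas Chad shares the top 2 cells and is at 0 in cells 12 and 11.

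For Thbs4 the most similar genes were Macrod2 (0.87), Chd6 (0.83), a chromatin remodeller gene, Gsto1 (0.82), Atg9a (0.80), an autophagy gene, and Tbc1d17 (0.79). Their highest cells differed from those of Thbs4 in part. Atg9a was highest in cell 11, at 8.62, and Chd6 in cell 1, at 8.15, while Macrod2 was highest in cell 13, at 6.43. The likeness thus rested on the whole order of the cells more than on the top pair.

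For Scx the first 5 genes were Ccdc85b (0.80), Tm2d3 (0.80), Maged2 (0.79), Insig1 (0.78) and Sfr1 (0.78). As Scx was at 0 in 10 cells, these values rest on 4 cells above 0. Ccdc85b, for example, was at 5.35 in cell 10 and 5.02 in cell 5 but also at 4.24 in cell 1, where Scx was at 0. Insig1, a regulator of sterol synthesis, and Tm2d3 were both highest in cell 10, at 5.56 and 8.46, not in cell 5. Of the other symbols, 97 (1.02%) had cells 5 and 10 as their highest pair, and 0 of the listed genes did.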

How the data were processed

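The authors deposited 1 table for 14 single cells. Per the labels' protocols, a SMART-Seq v4 3' kit and Nextera XT were used for the libraries. The submitters' processing notes name TopHat2, Cufflinks and GRCm38, without versions. The deposited table is named for FPKM, but the scale of its values is log2. They were taken as log2(FPKM + 1) after quantile normalization, which rests on the values themselves: their distribution is the same in all cells. Each of the 14 columns carries the number of 1 sample title. The plan had assumed linear FPKM, so thresholds were carried to the log2 scale. The members and lists were chosen with earlier results of these data known. Named genes are the members, list genes and, per member, the 5 genes with the highest Spearman correlation among symbols detected in at least 5 cells, without predicted, small RNA, mitochondrial and ribosomal protein symbols; a repeated symbol was used once. Some list genes are not reported here and were left out of every list. The likeness ranking was run on simulated data with planted near copies of a gene. Those data held no zeros or ties, so this checks the code and not the rankings given here. Coordinates, transcript sequences and lengths came from GENCODE M21 (GRCm38). Coding sequences were aligned globally with Biopython 1.88; other steps used pandas 2.3.3 and scipy 1.17.1. Alternatives were other detection levels, pseudocounts, undoing the division by length, leaving out cells, and other likeness settings.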

Additional observations from a re-analysis of the deposited data

How the results depend on the processing

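No test was run. Detection at 0.9 or 5 and the larger set of cells were added with the values known. Scx, Thbs4 and Comp were detected in 3, 12 and 7 cells, which became 1, 4 and 4 at FPKM 10 and 1, 2 and 3 at log2 5. Counting any value above 0 gave 14 cells for Comp. At least 2 members were detected in 7 cells, which became 14 above 0, 3 at FPKM 10 and 1 at log2 5. Of the 30 measured genes of the tendon lists, the 3 members among them, 24 were found in 7 or more cells, against 51.7% of all rows. This count became 15 at FPKM 10 and 12 at log2 5. Of the 14 measured genes of the TGF-beta list, 10 were found in 7 or more cells, which became 4 at FPKM 5, 2 at FPKM 10 and 1 at log2 5. The share of all rows was not computed at these other levels, so the falls cannot be set against that of the whole table.

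The 5 genes most like a member depended on the setting. With Pearson's r in place of Spearman's, 0 of 5 were shared for Scx, 1 for Thbs4 and 1 for Comp, where Pam was again first. With rows detected in at least 3 cells, 3 were shared for Thbs4 and 3 for Comp. With no filter on rows 1 was shared for Scx, 3 for Thbs4 and 3 for Comp. Leaving out each cell in turn moved the median between 3.14 and 3.28 for Thbs4 and between 0.93 and 1.42 for Comp, and it stayed 0 for Scx. The median of Thbs4 was 4.78 and that of Comp 2.0 with the division by length undone, and they were 2.27 and 1.42 in the larger set of cells. No paired analysis was possible because the labels give 1 group.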
